A study of Mus musculus with 24 samples.

Results

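The 9 protein-coding genes Pgk1, Rps29, Krtap6-2, Wls, Trp53, Pdgfra, Ttll11, Ano2 and Wdr76 are described here because CUT&RUN peaks of both antibodies lay at them in nearly every list of the study. They are 9 of 21883 protein-coding genes with a position in RefSeq GRCm38.p6, the assembly of mm10. A peak was assigned to a gene when its summit, the highest point of the peak, lay in the gene body or within 10000 bp of either end. The genes were chosen by the number of lists with such a summit, so that number is a description and is not tested.

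Sox9-lineage cells were sorted as tdTomato-positive cells from the cortex and outer medulla of kidneys of male mice, 9 to 12 weeks old and weighing 25 to 30 g, of genotype Sox9IRES-CreERT2/+:R26RtdT/+. All animals had bilateral ischaemia-reperfusion injury (IRI) and received tamoxifen at the time of injury, so that the Cre driven by the Sox9 locus marked cells with Sox9 activity then, and their descendants; no uninjured cells were analysed here. Pellets fixed in 0.2% PFA came from 10d or 48h after injury, with 4 biological replicates at each time per the labels, and each pellet was divided into 3 aliquots for Sox9, H3K4me3 or input. The 4 groups used are Sox9 10d, Sox9 48h, H3K4me3 10d and H3K4me3 48h, with 4 lists each, every list being called against the input of its own pellet per the peak names. Times were read from the sample titles; another label puts every sample, those titled 48h included, at day 10.

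CUT&RUN sends a nuclease to chromatin through an antibody, and the released fragments are sequenced. Sox9 is a transcription factor that is turned on in injured tubules and binds DNA as a member of the SRY-related family. H3K4me3 is a histone mark of the start of active genes, and served as the positive control in the protocol. Genomic intervals that gather fragments whatever the antibody are a known feature of such assays.

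The lists held 7724 to 88511 peaks. In each list the heights solved from the authors' fold and p-value were whole multiples, within 0.05, of 1 smallest height, here called a step, for at least 99.8% of peaks. Peaks of exactly 1 step made up 92.5% to 97.8% of each list, so a peak of several steps is uncommon. The number of reads behind a step is unknown. At the 24 marker genes of kidney cell types, H3K4me3 summits lay within 1000 bp of a gene end in 28 of 192 possible cases, with at most 4 of 8 lists at 1 gene (Epcam, an epithelial adhesion protein), 1 list at Sox9, and none at Krt8, Ptprc, Cd3e and Acta2. The same share over all protein-coding genes is not given here, so this count is not called low or high. The label of the cells could therefore not be checked against their markers in these lists.

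A summit was present in 16 of 16 lists at 8 of the 9 genes, and in 15 lists at Wls, which lacked one in Sox9 10d replicate 2. Of all protein-coding genes, 2.83% had a summit in 16 of 16 lists and 6.27% in at least 15. By antibody, 8 of the 9 genes had one in 8 of 8 Sox9 lists, against 3.48% of all genes, and 9 of 9 in 8 of 8 H3K4me3 lists, against 12.8%. Long genes gather single-step peaks: genes within 1.2-fold of the length of Ano2 had summits in a median of 15 lists, and those like Ttll11 in a median of 14, against 2 for those like Krtap6-2 and 5 for those like Rps29. The number of lists alone therefore says little about Ano2 and Ttll11. A peak of 2 or more steps was found in 16 of 16 lists at 8 of the 9 genes and in 14 at Wls, against 0.0685% of all protein-coding genes for 16 lists and 0.151% for at least 14 lists. Only 15 genes met the first condition, namely the 8, their neighbours Wrap53 and Lrr1, whose windows take in the same peaks, and Gm45871, Malt1, Sfi1, Tmem196 and Ppp1r9a.

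Within the 9 windows, peaks were merged where they overlapped by at least 1 bp. This gave 14 sites present in 12 or more lists, and all 9 genes had at least 1. Pdgfra had 4 of these sites, Pgk1 and Trp53 had 2 each, and the other 6 genes had 1 each. The lists with a peak at each site and the peak heights are shown in the plot of site heights. All positions below are in mm10, and the gene table used gives the extent of a gene and not its exons, so a site inside a body is placed by its distance along the gene and was not assigned to an exon or intron here.

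**Figure D1:**
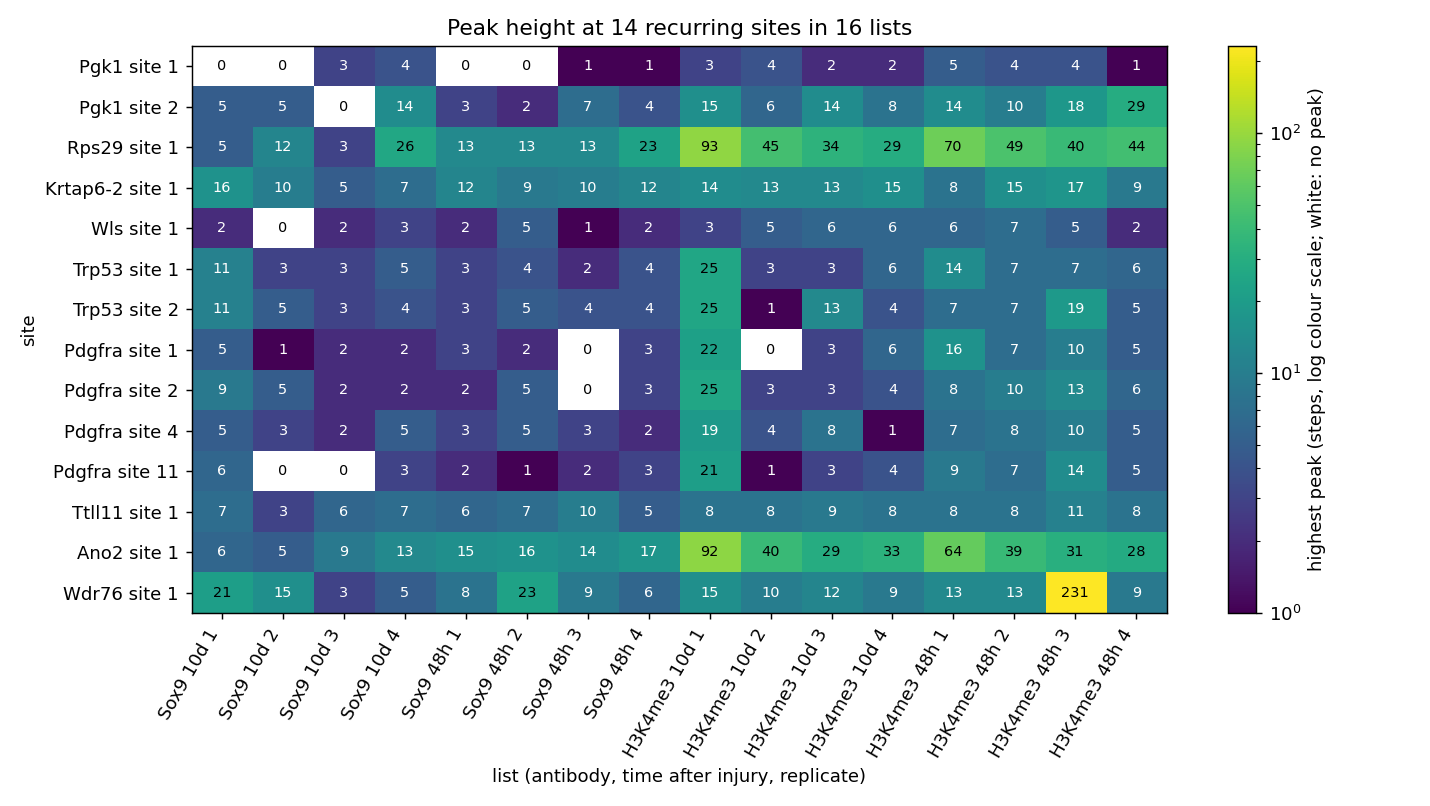
Height of the highest peak, in steps of each list, at the 14 sites with a peak in 12 or more of the 16 lists; rows are sites and columns are lists, Sox9 first and 10d before 48h, with white cells for lists without a peak. Rps29 and Ano2 have their highest values in H3K4me3 lists, Pdgfra and Trp53 in H3K4me3 10d replicate 1, and Wdr76 reaches 231 steps in H3K4me3 48h replicate 3.

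The promoters of Pgk1 and Krtap6-2 are shown because the recurring sites of these genes lie across and just beside the start of the gene. Both are RefSeq windows of GRCm38.p6 from 250 bases before to 50 bases after the start, 5′ to 3′ on the strand of the gene. Capitals in Pgk1 mark the 103 bases that lay under peaks of 10 lists, the most at any base of the window, and Krtap6-2 has none because no peak reached its window.
Pgk1 (chrX:106186850-106187149, plus strand): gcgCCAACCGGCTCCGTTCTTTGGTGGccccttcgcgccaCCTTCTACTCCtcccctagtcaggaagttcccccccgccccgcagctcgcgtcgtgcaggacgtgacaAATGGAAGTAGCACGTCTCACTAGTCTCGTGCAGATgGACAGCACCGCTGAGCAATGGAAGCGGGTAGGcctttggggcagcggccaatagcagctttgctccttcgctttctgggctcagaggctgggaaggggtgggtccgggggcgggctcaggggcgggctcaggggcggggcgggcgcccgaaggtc
Krtap6-2 (chr16:89420062-89420361, minus strand): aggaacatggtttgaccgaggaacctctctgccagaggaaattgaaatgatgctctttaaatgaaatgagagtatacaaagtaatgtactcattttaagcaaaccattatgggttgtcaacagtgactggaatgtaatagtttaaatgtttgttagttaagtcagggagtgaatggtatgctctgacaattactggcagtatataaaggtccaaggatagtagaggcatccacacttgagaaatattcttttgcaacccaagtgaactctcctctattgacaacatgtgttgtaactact

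The Pgk1 window is rich in CpG, with 24 CpG and 66.7% G and C, against a median of 7 CpG and 52.7% over 32851 promoter windows. The Krtap6-2 window has 1 CpG and 37.3% G and C. The letters ACAATG and ACAAAG, variants of the core bound by Sox proteins, were searched on both strands. ACAATG was in neither window, and ACAAAG was in neither strand of Pgk1 and once in Krtap6-2, against 12.6% of all windows for ACAATG and 18.7% for ACAAAG. Windows were found for 7 of the 9 genes; in the others with a window, peaks of at most 2 lists overlapped it.

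Pgk1 encodes phosphoglycerate kinase, an enzyme of glycolysis in nearly all cells. Its body lies at chrX:106187100-106203699 and had a site at each end. The 5′ site, chrX:106186729-106187366, was 638 bp wide, covered the whole promoter window shown above, and was present in 12 lists: 2 of 4 Sox9 10d, 2 of 4 Sox9 48h, and 8 of 8 H3K4me3 lists. Its heights were low, at 3 and 4 steps in Sox9 10d replicates 3 and 4, 1 step in Sox9 48h replicates 3 and 4, 3, 4, 2 and 2 steps in H3K4me3 10d, and 5, 4, 4 and 1 steps in H3K4me3 48h.

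The taller Pgk1 site lay at the other end of the gene, chrX:106203633-106204249, 617 bp wide, with its median summit 323 bp past the 3′ end. It was present in 15 lists, missing only from Sox9 10d replicate 3. Heights were 5, 5, 0 and 14 steps in Sox9 10d, 3, 2, 7 and 4 in Sox9 48h, 15, 6, 14 and 8 in H3K4me3 10d, and 14, 10, 18 and 29 in H3K4me3 48h. The 2 sites together held all 24 peaks of 2 or more steps in the Pgk1 window. Inside the body itself a summit lay in only 3 lists.

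Rps29 encodes a protein of the small ribosomal subunit. Its recurring site lay outside the gene, at chr12:69159292-69159594, with a median summit 150 bp beyond the higher-coordinate end of the body (chr12:69157722-69159186), and was present in 16 of 16 lists. It was 303 bp wide and coincided with another annotated gene, Rn7s1 (chr12:69159295-69159593), a 7SL RNA gene of the signal recognition particle, which it covered whole and exceeded by 3 and 1 bp. Heights were 5, 12, 3 and 26 steps in Sox9 10d, 13, 13, 13 and 23 in Sox9 48h, 93, 45, 34 and 29 in H3K4me3 10d, and 70, 49, 40 and 44 in H3K4me3 48h. Every H3K4me3 list was above every Sox9 list in steps.

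The individual peaks at the Rps29 site were 290 to 301 bp wide, nearly the length of Rn7s1, and 14 of 16 summits lay within 14 bp of each other. The second 7SL gene on the same chromosome, Rn7s2 (chr12:69361183-69361481), also had a peak in 16 of 16 lists, up to 70 steps, while Rn7sk, an unrelated small nuclear RNA gene, had a peak in 1 list. Genes of the 7SL family have many near-identical copies, and how reads that match several copies were placed is not given in the sources used here, so the value at this site is uncertain as to its copy of origin. The presence of Rps29 among the 9 genes rests on this site: in its body alone a summit lay in 2 lists.

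Pdgfra encodes a receptor tyrosine kinase for platelet-derived growth factors, known in kidney from interstitial fibroblasts. It had 34 sites, of which 12 were present in at least 6 lists and 4 in at least 12. These 12 sites began 12205 bp from the lower-coordinate end of the body (chr5:75151322-75198206), ended 3106 bp before the other end, and stood 772 to 5708 bp apart. They covered 13.5% of the 31574 bp from the first to the last. No site of 6 or more lists lay in the first 12205 bp or at the promoter. Of the 122 peaks of 2 or more steps in the window, 113 lay in these 12 sites.

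The most recurrent Pdgfra site, chr5:75170491-75170958, was 468 bp wide, lay 41.6% along the body, and was present in 16 of 16 lists. It had 5, 3, 2 and 5 steps in Sox9 10d, 3, 5, 3 and 2 in Sox9 48h, 19, 4, 8 and 1 in H3K4me3 10d, and 7, 8, 10 and 5 in H3K4me3 48h. The other sites of 12 or more lists were chr5:75163527-75163903 in 14 lists, chr5:75166505-75166777 in 15 and chr5:75192426-75192678 in 14. Their heights ran from 1 to 25 steps. A further site, chr5:75176667-75176865 in 11 lists, overlapped the microRNA gene Mir7025 by 35 bp.

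The number of Pdgfra sites with a peak differed between lists. H3K4me3 10d replicate 1 had a peak at 12 of 12 sites, with 191 steps summed, and was the tallest list in steps at all 12. Its partner from the same pellet, Sox9 10d replicate 1, had a peak at 11 sites with 55 steps summed, against 5 or 6 sites and 9 to 17 steps in the other Sox9 10d lists. Sox9 48h lists had a peak at 3 to 8 sites and 8 to 16 steps summed, and H3K4me3 48h lists at 10 or 11 sites and 35 to 93 steps. These 2 lists of the pellet 10d replicate 1 are also the longest of their antibody, with 88511 H3K4me3 and 85420 Sox9 peaks. Divided by the total steps of the list, H3K4me3 48h replicate 3 was most often the tallest, at 5 of 12 sites.

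Trp53 encodes p53, the transcription factor that halts the cell cycle or starts apoptosis after DNA damage. It had 2 sites in 16 of 16 lists, both inside the later part of its body (chr11:69580348-69591873). The first, chr11:69586888-69587635, was 748 bp wide and 61.9% along the body. It had 11, 3, 3 and 5 steps in Sox9 10d, 3, 4, 2 and 4 in Sox9 48h, 25, 3, 3 and 6 in H3K4me3 10d, and 14, 7, 7 and 6 in H3K4me3 48h. All 16 of its summits lay within 123 bp of each other.

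The second Trp53 site, chr11:69588310-69589866, was 1557 bp wide because peaks of different lists overlapped in a chain. Its 25 peaks had summits in 2 main places: 15 summits, from 15 lists, lay within 134 bp near the lower-coordinate edge, and 8 more lay 1056 bp or further beyond them. The tallest peak of each list anywhere in the site had 11, 5, 3 and 4 steps in Sox9 10d and 3, 5, 4 and 4 in Sox9 48h. In H3K4me3 lists it had 25, 1, 13 and 4 steps at 10d, and 7, 7, 19 and 5 at 48h. The heights of Sox9 10d replicate 3 and H3K4me3 48h replicate 4 came from the far place. That of H3K4me3 10d replicate 2 came from between the 2 places. In steps, the pellet 10d replicate 1 gave the tallest Sox9 and the tallest H3K4me3 peak at both sites. Divided by the total of the list, Sox9 10d replicate 1 was at 11.5 steps per 100000 at both, against 34.2 in Sox9 48h replicate 1. The promoter window of Trp53 was overlapped by peaks of 2 lists.

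**Figure D2:**
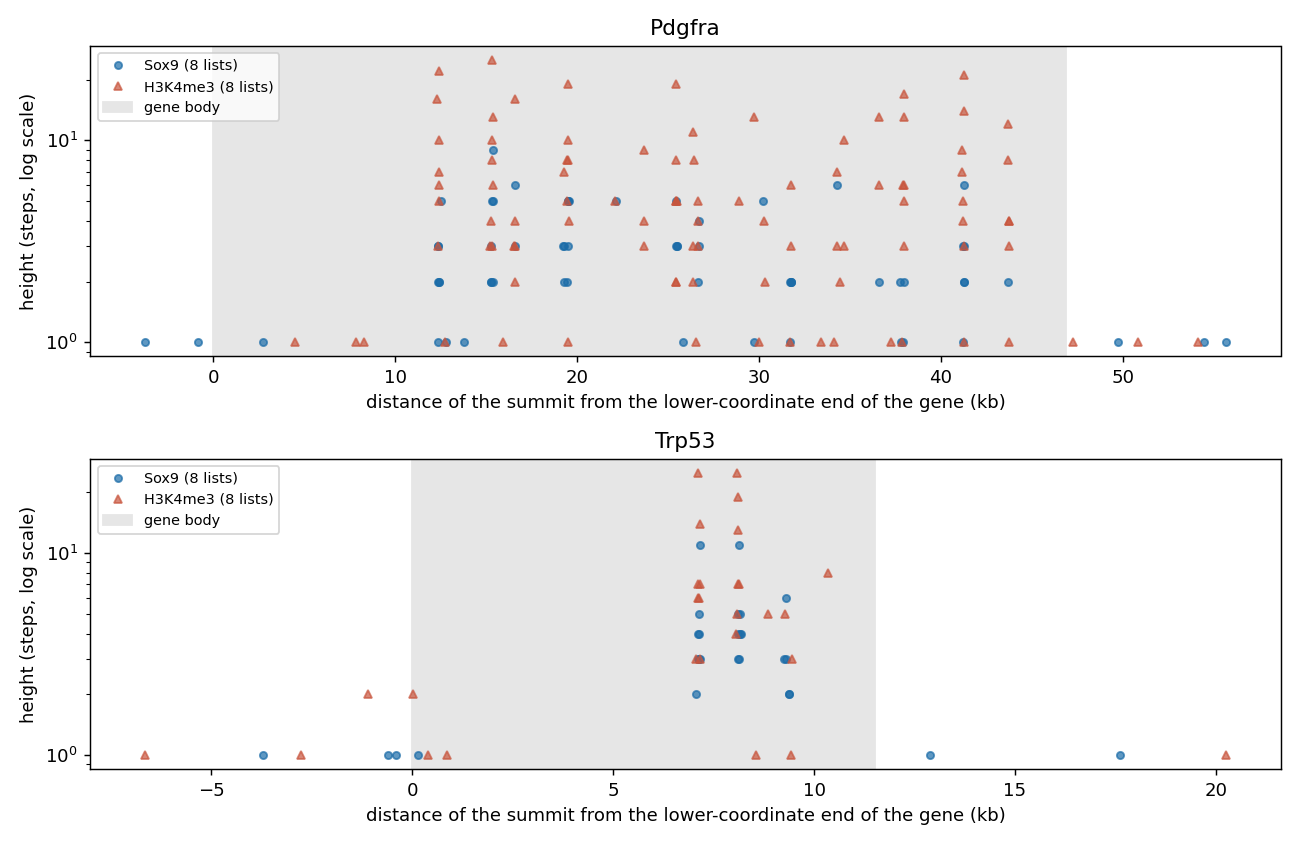
Every peak of the 16 lists within 10 kb of Pdgfra and of Trp53, with the distance of the summit from the lower-coordinate end of the gene in kb on the horizontal axis and height in steps on a log axis; circles are Sox9, triangles are H3K4me3 and grey is the gene body. Peaks of several steps stand in columns along Pdgfra from about 12 kb onward and in the later part of Trp53, while peaks outside the bodies are of 1 step at Pdgfra and of 1 or 2 steps at Trp53.

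Wdr76 encodes a WD-repeat protein linked to the DNA damage response. Its site, chr2:121522322-121522907, was 586 bp wide, lay 41.9% along the body (chr2:121506723-121544860) and was present in 16 of 16 lists. Heights were 21, 15, 3 and 5 steps in Sox9 10d, 8, 23, 9 and 6 in Sox9 48h, 15, 10, 12 and 9 in H3K4me3 10d, and 13, 13, 231 and 9 in H3K4me3 48h. Apart from the 231 steps of H3K4me3 48h replicate 3, the Sox9 and H3K4me3 heights overlapped. In that list the peak ranked 2 by height in steps. Of the 16 summits of the site, 14 lay within 12 bp.

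Wls encodes the carrier that takes Wnt proteins to the cell surface. Its site, chr3:159939407-159939679, was 273 bp wide, lay 901 bp past the 3′ end (body chr3:159839650-159938666) and was present in 15 lists. Heights were 2, 0, 2 and 3 steps in Sox9 10d, 2, 5, 1 and 2 in Sox9 48h, 3, 5, 6 and 6 in H3K4me3 10d, and 6, 7, 5 and 2 in H3K4me3 48h. These peaks had at most 7 steps and ranked from 56 to 540 by height within their lists. The local background at this site was the highest of the 14 sites, at 38.0 to 148 pileup units. The authors' fold there ran from 1.64 to 16.1. When all lists were cut to equal length by p-value, Wls had a summit in 9 lists, and the other 8 genes in 16. Of 21883 protein-coding genes, 30 had a summit in 16 lists after this cut, against 619 without it.

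Krtap6-2 encodes a hair keratin-associated protein, a structural protein of the hair shaft. Its site, chr16:89419708-89420059, was 352 bp wide, lay inside the body (chr16:89419323-89420111) with the median summit 110.5 bp from the start, and was present in 16 of 16 lists. Heights were 16, 10, 5 and 7 steps in Sox9 10d, 12, 9, 10 and 12 in Sox9 48h, 14, 13, 13 and 15 in H3K4me3 10d, and 8, 15, 17 and 9 in H3K4me3 48h. Both antibodies gave overlapping heights, and all 16 summits lay within 30 bp. The site stopped short of the promoter window printed above.

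Ttll11 encodes a tubulin glutamylase, an enzyme that adds glutamate chains to microtubules. Its site, chr2:35802090-35802431, was 342 bp wide and lay 51005 bp from the lower-coordinate end of the body (chr2:35751240-35979820), in 16 of 16 lists. Heights were even among H3K4me3 lists, with 8, 8, 9 and 8 steps at 10d and 8, 8, 11 and 8 at 48h. In Sox9 lists they were 7, 3, 6 and 7 at 10d and 6, 7, 10 and 5 at 48h. The site held 16 of the 117 peaks of the window, and the other 101 reached at most 2 steps.

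Ano2 encodes a calcium-activated chloride channel known from sensory cells. Its site, chr6:125876905-125877257, was 353 bp wide and lay 53.4% along the body (chr6:125690419-126040133), in 16 of 16 lists. Heights were 6, 5, 9 and 13 steps in Sox9 10d, 15, 16, 14 and 17 in Sox9 48h, 92, 40, 29 and 33 in H3K4me3 10d, and 64, 39, 31 and 28 in H3K4me3 48h. As at Rps29, every H3K4me3 list was above every Sox9 list in steps. A second tall peak of 45 steps was found at chr6:125816636-125816759 in H3K4me3 10d replicate 3 alone.

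The Ano2 and Rps29 sites had similar heights in most lists, but not in most Sox9 10d lists. The Ano2 height divided by the Rps29 height was 0.902 in the median, with a range of 0.417 to 3. It was within 1.5 times in 12 of 16 lists. The exceptions were Sox9 10d replicates 2, 3 and 4, at 0.417, 3 and 0.5, and H3K4me3 48h replicate 4, at 0.636. The summits of Ano2 fell in 3 clusters within 204 bp, of 5, 7 and 4 lists, in contrast to the single main cluster at Rps29. The peaks of the Ano2 site were 316 to 351 bp wide.

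Local background differed widely between the sites, from well inside the range of ordinary peaks to its top. The median background was 76.0 pileup units at Wls, 34.5 at Rps29, 22.5 at Ano2 and 18.5 at Wdr76, which placed them in the median at the 99.7th, 99.4th, 98.9th and 98.4th percentile of the peaks of their lists. It was 1.09 at the 3′ site of Pgk1, at the 42.1st percentile, and 2.50 at the first Trp53 site. Over all peaks, the median background of a list was 0.300 to 3.00 units. Over the genome, 520412 merged regions were found, 482568 of them in 1 list only, and 122 regions other than the 14 sites were present in 12 or more lists. These 122 had a median background percentile of 99.4, against 86.6 for the 14 sites. Of the 122, 60 lay in a protein-coding gene body or within 10000 bp of one, and 38 in a body. Of the 14, 10 lay in a body, but these sites were sought only in such windows, so the shares cannot be set against each other. At the limit itself, 28 regions had 12 lists and 41 had 11. The part of local background in the recurrence of the sites was not tested.

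**Figure D3:**
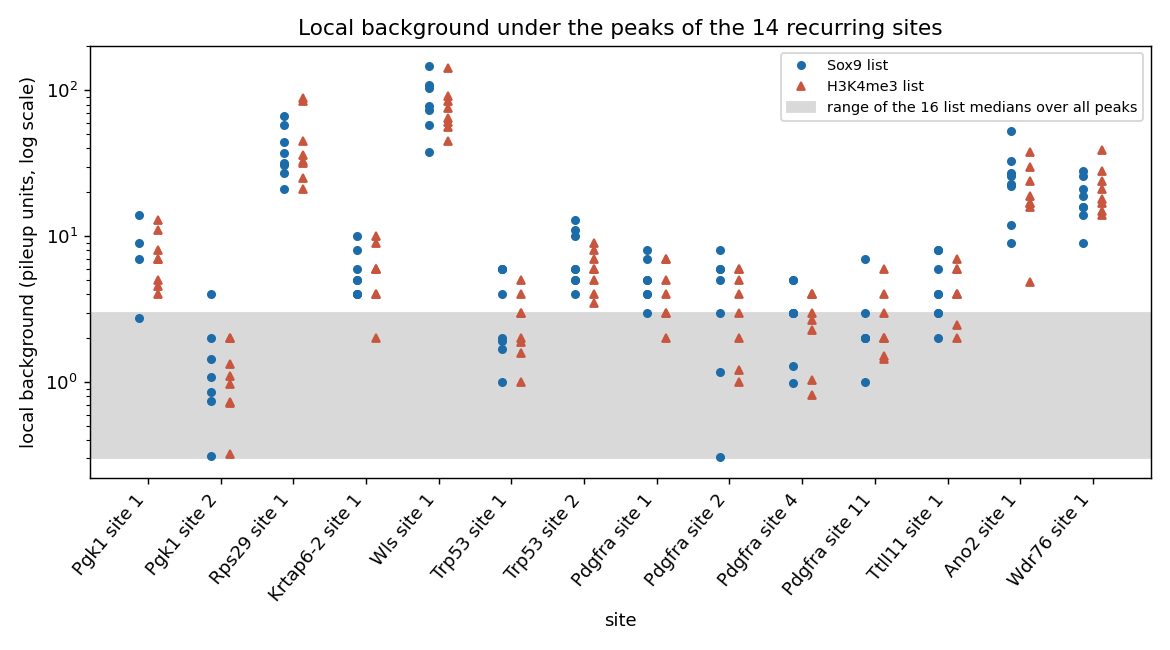
Local background under each peak at the 14 sites, in pileup units on a log axis; circles are Sox9 lists, triangles are H3K4me3 lists, and the grey band is the range of the 16 list medians over all peaks (0.300 to 3.00). Wls, Rps29, Ano2 and Wdr76 stand well above the band, while the 3′ site of Pgk1 lies almost wholly within it.

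No relative of the 9 genes had a peak of 2 or more steps in 8 or more lists. Only 100 of 21883 protein-coding genes did, so this absence says little about the families. Among the other members of their families, counted by symbol, the most lists with a peak of 2 or more steps was 5, at Ttll10, and for Krtap genes it was 3, at Krtap28-13. The other Pgk gene, Pgk2, had a summit in 0 lists. Pdgfrb, the other receptor of its kind, had a summit in 13 lists but a peak of 2 or more steps in none. Naming at most 3 per family, relatives with a summit in at least 14 lists were Rps6ka1, Rps6kc1 and Rps6ka2, which encode kinases and not ribosomal proteins, Trp73, Ttll5, Ano7, Ano10, Ano1, Wdr90, Wdr41 and Wdr66, and the median height of each of these was 1 step. In all, 5 of 9 Ano and 8 of 64 Wdr relatives had a summit in at least 14 lists, against 2311 of 21883 protein-coding genes.

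The 5 other genes with a peak of 2 or more steps in all 16 lists are the most alike by this measure. Malt1, a protease of lymphocyte signalling, had a median height of 11.5 steps and a background of 12.0 units. The others, Gm45871, Sfi1, Tmem196 and Ppp1r9a, each had a median of 4 steps. Their background medians were 46.5 to 360 units, against 34.5 units or less at the recurring sites other than that of Wls.

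The times were compared within each antibody. Because the lists differ in length, the highest peak of a gene in a list was expressed as steps per 100000 steps of the list and set on the log2(value + 1) scale, on which a difference understates the change of low values. All 9 genes were lower at 10d than at 48h for both antibodies, with a median log2 difference of -1.25 for Sox9 and -0.86 for H3K4me3, against -0.11 and -0.18 over all genes tested. Of all genes tested, 55.5% were lower at 10d for Sox9 and 60.2% for H3K4me3. Genes tested could lack a peak in some lists, and a missing peak stays at 0 under any scaling. The 9 genes had a peak in every list, apart from Wls in Sox9 10d replicate 2. Division by the total therefore moved nearly all their values. The all-gene medians and shares are not a like baseline for the 9 genes. No gene, of the 9 or of the 10487 tested for Sox9 and 15531 for H3K4me3, passed after adjustment (two-sided exact permutation tests with Benjamini-Hochberg adjustment, lowest adjusted p 0.934 and 0.766; 310 and 400 genes, or 2.96% and 2.58%, had an unadjusted p under 0.05; limma made 0 calls too). With 4 lists against 4 the smallest p possible is 0.0286.

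The direction of these differences depends on the scaling. In steps not divided by the total of the list, 6 of 9 genes were lower at 10d for each antibody, with a median log2 difference of -0.26 for Sox9 and -0.13 for H3K4me3, and 0.25 and 0.15 over all genes. Pgk1, Trp53 and Pdgfra were then higher at 10d for Sox9, and Krtap6-2, Wls and Ano2 for H3K4me3. At Ano2 the window height of H3K4me3 10d replicate 3 is the lone 45-step peak and not the recurring site. The 10d lists include the longest of both antibodies. Total steps were 95671, 16540, 19264 and 44565 in Sox9 10d lists, and 8765, 29558, 18083 and 18489 in Sox9 48h lists. They were 103433, 35412, 88256 and 36537 in H3K4me3 10d lists, and 32873, 37861, 42813 and 28696 in H3K4me3 48h lists. The part of list length in the difference, and in all 9 genes being lower at 10d after division, was not tested.

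**Figure D4:**
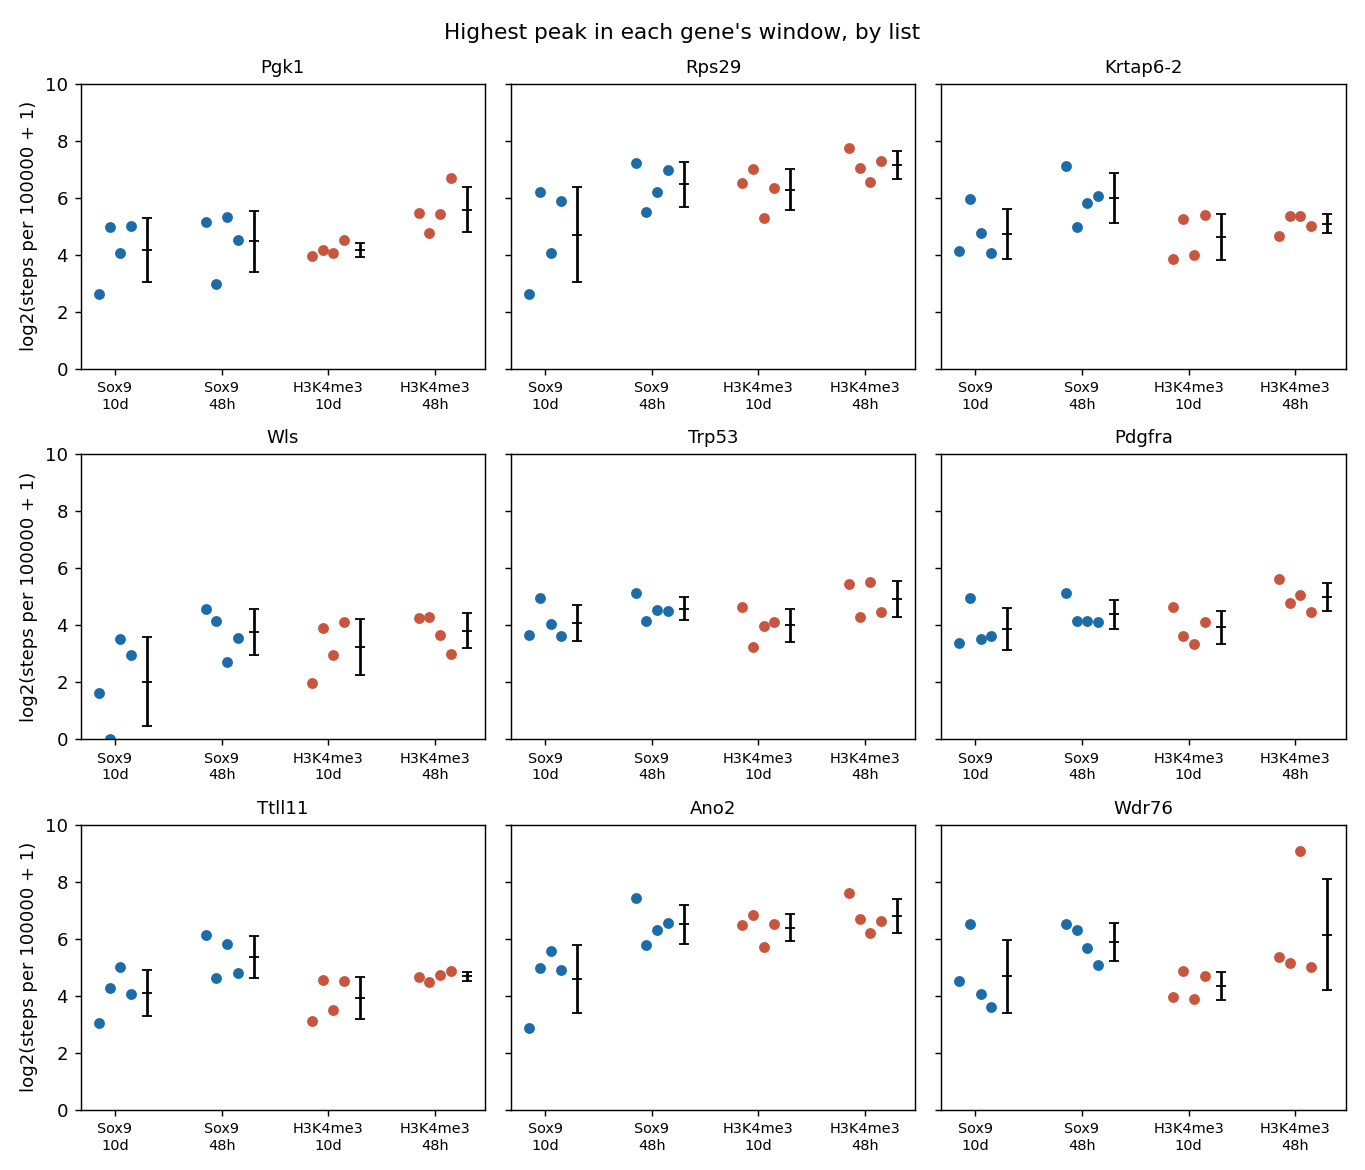
Highest peak in the window of each of the 9 genes, as log2(steps per 100000 steps of the list + 1), in the 4 lists of each group (points) with the mean and SD (black); blue is Sox9 and red is H3K4me3, with 10d left of 48h. Means are lower at 10d than at 48h in all 9 panels for both antibodies, and the groups overlap except at Ano2 for Sox9 and at Pgk1 and Wdr76 for H3K4me3.

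The groups did not overlap for Ano2 with Sox9, and for Pgk1 and Wdr76 with H3K4me3. Among all genes tested, 1.56% for Sox9 and 1.76% for H3K4me3 were lower at 10d without overlap. These shares too include genes without a peak in some lists. Ano2 had 6.27, 30.2, 46.7 and 29.2 steps per 100000 in Sox9 10d, against 171, 54.1, 77.4 and 91.9 in Sox9 48h. The log2 means were 4.58 ± 1.18 at 10d and 6.51 ± 0.69 at 48h (SD, n = 4 each), a difference of -1.93 (exact permutation p = 0.0286, adjusted p = 0.934). In steps not divided by the total, the Ano2 difference was -0.91 with the same unadjusted exact permutation p.

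Pgk1 had 14.5, 16.9, 15.9 and 21.9 steps per 100000 in H3K4me3 10d, against 42.6, 26.4, 42.0 and 101 in H3K4me3 48h. Its log2 means were 4.18 ± 0.24 at 10d and 5.58 ± 0.79 at 48h (SD, n = 4 each), a difference of -1.40 (exact permutation p = 0.0286, adjusted p = 0.766). In undivided steps the difference was -0.66 (exact permutation p = 0.2). The H3K4me3 heights come from the site past the 3′ end of the gene and not from the promoter. For Sox9 the window difference of Pgk1 was -0.31 (exact permutation p = 0.657), and without Sox9 10d replicate 1 it was 0.20. That value takes Sox9 10d replicate 3 from the promoter site; at the 3′ site alone the Sox9 difference was -1.32 (exact permutation p = 0.371).

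Wdr76 had 14.5, 28.2, 13.6 and 24.6 steps per 100000 in H3K4me3 10d, against 39.5, 34.3, 540 and 31.4 in H3K4me3 48h. Its log2 difference of -1.80 (exact permutation p = 0.0286, adjusted p = 0.766) was decided in size by 1 list: without H3K4me3 48h replicate 3 it was -0.82. In undivided steps it was -1.08 (exact permutation p = 0.514). Rps29 differed by -1.77 for Sox9 (exact permutation p = 0.143) and by -0.86 for H3K4me3 (exact permutation p = 0.0571). The other genes differed by -1.73 to -0.52 for Sox9 and by -1.05 to -0.40 for H3K4me3. Some of these exceeded the SD of both groups, as at Pdgfra for H3K4me3 (-1.05, SD 0.58 at 10d and 0.50 at 48h, n = 4 each, exact permutation p = 0.0571), but the groups overlapped at each of them. The H3K4me3 difference of -0.40 is that of the Ano2 window, and at its recurring site alone it was -0.55 (exact permutation p = 0.4).

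The antibodies were compared within the 8 pellets. Relative to the total of the list, Rps29 was lower with Sox9 than with H3K4me3 in 8 of 8 pellets, with log2 means of 5.58 ± 1.53 for Sox9 and 6.72 ± 0.73 for H3K4me3 (SD, n = 8 each) and a mean difference of -1.14 (exact sign-flip permutation p = 0.0078, the smallest that 8 pellets can give; adjusted p = 0.622). Ano2 was lower with Sox9 in 7 of 8 pellets, with a mean log2 difference of -1.04 (exact permutation p = 0.0234, adjusted p = 0.622). With the height at its leading site in place of the 45-step peak, the Ano2 difference was -0.96 (exact permutation p = 0.0859). Unadjusted p under 0.05 with a lower value for Sox9 was reached by 2.57% of the 12660 genes tested, and 0 genes passed after adjustment, against 863 (6.82%) with an unadjusted p under 0.05 in either direction.

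At the other 7 genes no difference between the antibodies reached an unadjusted p under 0.05 when heights were divided by the total of the list. Krtap6-2 and Ttll11 were higher with Sox9 by 0.50 and 0.42 on the log2 scale (exact permutation p = 0.242 and p = 0.219), Wdr76 differed by 0.04, and Pgk1, Wls, Trp53 and Pdgfra by -0.56, -0.64, -0.13 and -0.33. In steps not divided by the total of the list, all 9 genes were lower with Sox9, and 5 of these 7 had an unadjusted exact permutation p under 0.05: 0.0234 at Pgk1, 0.0156 at Wls, 0.0391 at Trp53, 0.0234 at Pdgfra and 0.0078 at Ttll11 (adjusted p = 0.761 for each). On that scale 290 of the 12660 genes tested had an unadjusted p under 0.05 in either direction. The median log2 difference over all these genes was -0.25. The median list had 17130.5 Sox9 and 32856.5 H3K4me3 peaks, and the part of list length was not tested. The time difference itself was not found to differ between the antibodies at any of the 9 genes (exact permutation of the within-pellet differences, unadjusted p from 0.0857 at Ano2 to 0.714, adjusted p = 1.00 for all); 2.52% of the 12660 genes had an unadjusted p under 0.05, and none of the 9 did.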

How the data were processed

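CUT&RUN libraries of 24 samples fall into Sox9, H3K4me3 and input; the 16 antibody samples have a peak list each, and the 8 inputs were not analysed here as samples. The submitters' processing notes name MACS3, Bowtie2, Bowtie, Partek 10 and mm10; the peak threshold and the treatment of duplicates and scaling are not given in the sources used here. Each list holds the peaks of 1 library called with its pellet's own input as control, per the peak names. The fold enrichment at the summit is the authors' ratio over local background, and the authors deposited p-values and q-values as −log10. The deposited score and the summit offset are whole numbers, and the score was not used.

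Pileup and background were solved from fold and p-value, taking 1 as added to both in the fold and the p-value as a Poisson tail; over 99.9% of peaks in each list could be solved. Solved heights were counted in steps (tolerance 0.05), and background percentiles are within a list. Read depth is unknown, so precision rests on 4 lists per group. Tests used log2(steps per 100000 + 1) of the highest peak in a gene's window, for genes seen in at least 4 of 8 lists (times) or 8 of 16 (antibodies), with two-sided exact permutation (70 arrangements) or sign flips over 8 pellets, and Benjamini-Hochberg adjustment. The p-values measure the spread between replicates labelled biological.

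The 9 genes and the lists of relatives and markers were chosen with earlier results of these data known. The text names all 9 genes, relatives with a summit in at least 14 lists (up to 3 per family, shortest window first) or with the most multi-step peaks, and other genes with multi-step peaks in 16 lists. The comparison with genes of like length, the height at the leading site, the 45-step Ano2 peak and the Ano2 to Rps29 ratio were chosen after the data were seen. Sox9 and H3K4me3 lists of 1 pellet are paired per the labels' protocols, although their deviations from group means correlated by only -0.03 to 0.063. On simulated data for the Sox9 time comparison (10487 genes), 22.3% of genes changed by 2 and 100% of genes changed by 6 on the log2 scale reached an unadjusted p under 0.05, against 2.49% of unchanged genes. Software was R 4.3.3 with limma 3.58.1, and Python 3.11.15 with Matplotlib 3.10.9, SciPy 1.17.1, NumPy 2.4.6 and pandas 2.3.3.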

Additional observations from a re-analysis of the deposited data

Results flagged for a closer look

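Within the 36 groups of 4 lists made by 9 genes, 2 antibodies and 2 times, 3 held a list whose gap to the nearest other list exceeded Dixon's 95% critical value; chance gives about 1 in 20 groups. Wdr76 stood at 540 steps per 100000 in H3K4me3 48h replicate 3, against 31.4 to 39.5 in the other lists of the group, from a peak of 231 steps against 9 to 13. Pdgfra stood at 30.2 steps per 100000 in Sox9 10d replicate 2, against 9.41 to 11.2 in the others, from a highest peak of 5 steps against 2 to 9. Pdgfra also stood at 34.2 steps per 100000 in Sox9 48h replicate 1, against 16.2 to 16.9, from 3 steps against 3 to 5. That list is the shortest of the 16, with 7724 peaks, and the part of list length in the Pdgfra values was not tested.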

How the results depend on the processing

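The count of genes past the adjusted threshold was 0 under every alternative run, the number of sites in 12 or more lists was 13 or 14, and 6 to 9 of the 9 genes had a summit in every list used, 6 of them with no flank around the body. In steps not divided by the list total, the time difference of Sox9 turned to 0.54 at Pgk1, 0.38 at Trp53 and 0.37 at Pdgfra, that of H3K4me3 to 0.21 at Krtap6-2, 0.06 at Wls and 0.33 at Ano2, and the antibody difference to -0.36 at Krtap6-2, -0.41 at Ttll11 and -0.79 at Wdr76. As percentiles of the authors' fold, the Sox9 time difference turned to 30.1 points at Wls, 17.8 at Trp53, 0.153 at Pdgfra and 0.0488 at Ttll11, and that of H3K4me3 to 0.171 at Krtap6-2, 38.4 at Wls, 0.260 at Ttll11, 0.0556 at Ano2 and 19.1 at Wdr76. The antibody difference turned to 0.069 at Trp53 in 10d pellets, to -0.26 at Wdr76 in 48h pellets, and, at the leading site only, to 0.21 at Trp53 and 0.017 at Pdgfra. The cause was not tested. Leaving out 1 list at a time gave -0.82 to 0.20 for the Sox9 time difference of Pgk1, and leaving out 1 pellet -0.19 to 0.53 for the antibody difference of Wdr76; the other 25 differences kept their sign.

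With same-numbered lists taken as a replicate block, 0 genes passed, and the smallest p that 4 pairs allow is 0.125; the numbers pair lists of different times by number only (correlations of deviations -0.0116 to 0.0127). With no replicate block between the antibodies, 0 genes passed and Rps29 had an unadjusted exact permutation p of 0.0752. Most peaks stand at 1 step, so a difference of 1 or 2 steps at Wls or the Pgk1 promoter is at the limit of what these lists resolve.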
